A study of Homo sapiens with 4 samples.

Results

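The receptor tyrosine kinases examined were those often discussed in adaptive resistance to MEK inhibitors: EGFR, ERBB2, ERBB3, MET, AXL, IGF1R, INSR, FGFR1, DDR1 and EPHA2. These 10 genes were taken by their symbols from the 16834 genes of the expression table, and all 10 were listed and had counts in every library. The question was how the receptor transcripts stood after MEK inhibition, with and without neobractatin (NBT), a natural compound of Garcinia bracteata. Cells of the established human pancreatic ductal adenocarcinoma (PDAC) line MIA PaCa-2, labelled wild type, were kept as control or exposed for 12 h to 1 µM NBT, to 5 µM trametinib, a MEK inhibitor, or to both drugs at these doses, called the combination. Sequencing on the BGISEQ-500 gave 1 library per condition. Ordinary differences between cultures therefore enter every comparison at an unknown size, and no p-value is given. Trametinib was used at a single dose and a single time, and RNA was measured, not receptor protein or its phosphorylation.

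Receptor tyrosine kinases sit in the cell membrane, bind growth factors or matrix outside the cell and pass the signal through RAS to the RAF, MEK and ERK kinases and through PI3K to AKT. ERK in turn limits the pathway above it, through phosphatases, Sprouty proteins and the transcription factors that set receptor levels. When MEK is blocked, these limits weaken, and in several cancers some receptors, ERBB3 among them, become more abundant or more active and drive AKT signaling.

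The estimated counts summed to between 18776254 in the control library and 19614826 in the combination library, and 3 counts corresponded to 0.153 to 0.160 CPM (counts per library, scaled to a fixed sum). As a check of the labels, all 10 genes of a list of MAPK output (phosphatases, Sprouty proteins, ETS factors and cyclin D1) were lower past the limits given below in both libraries with trametinib. Among them DUSP6, the phosphatase of ERK, had 329 counts in the control, 521 under NBT, 14 under trametinib and 9 under the combination. The cells carried epithelial keratins, with KRT8 at 3799 and KRT18 at 3142 TPM in the control (TPM is a level scaled to transcript length and to a fixed library sum). CDH1, E-cadherin, stood at 85.4 TPM and VIM, vimentin, at 11.5 TPM in the control library, whereas MIA PaCa-2 is usually described as rich in vimentin and poor in E-cadherin. The cell line entries of the labels also differ in their number between libraries while the titles agree on MIA PaCa-2, and the identity of the line was not tested. The summed level of 5 epithelial and carcinoma markers was 7280 TPM in the control, 6120 under NBT, 3580 under trametinib and 2790 under the combination. Most of this sum was KRT8 and KRT18. KRT18 was lower and VIM higher than in the control, past the limits, in both libraries with trametinib, whereas CDH1 and EPCAM were not called (log2 ratio 0.05 and -0.18 with trametinib), and the part of this shift in the receptor values was not tested. Of 6 markers of blood, vessel and stromal cells in the table, CD68 had the most counts, and PTPRC had at most 17, PECAM1 at most 26 and LUM at most 5 in any library. COL1A1 (45 counts in the control and 98 with trametinib) and VWF (3 and 25) were called higher with trametinib, and the median log2 ratio of the 6 was 1.06 there. Their summed level was 131, 141, 95.2 and 102 TPM in the control, NBT, trametinib and combination libraries, most of it CD68, and the part of these markers in the receptor values was not tested. In RNA of whole cultures, fewer cells of a kind and less RNA per cell cannot be told apart.

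The 250 bases before the start of 3 receptor genes are shown because EPHA2 had the largest difference of the set, MET was highest with the combination and lowest with trametinib alone, and AXL has a start inside the gene whose transcript differed from the others. The sequences are those of RefSeq on GRCh38.p14, read in the direction of the gene, and capitals mark matches to the motifs named here.
EPHA2, chr1:16156070-16156319, minus strand: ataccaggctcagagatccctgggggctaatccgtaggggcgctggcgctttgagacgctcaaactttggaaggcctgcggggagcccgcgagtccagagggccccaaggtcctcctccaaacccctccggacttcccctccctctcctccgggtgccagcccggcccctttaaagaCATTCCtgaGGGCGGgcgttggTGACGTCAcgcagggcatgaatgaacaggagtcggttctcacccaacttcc
MET, chr7:116671946-116672195, plus strand: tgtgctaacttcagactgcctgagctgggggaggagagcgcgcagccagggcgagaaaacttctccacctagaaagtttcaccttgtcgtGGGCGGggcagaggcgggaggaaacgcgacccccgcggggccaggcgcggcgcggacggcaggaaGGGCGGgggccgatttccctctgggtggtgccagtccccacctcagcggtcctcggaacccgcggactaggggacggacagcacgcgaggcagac
AXL, outer start, chr19:41218973-41219222, plus strand: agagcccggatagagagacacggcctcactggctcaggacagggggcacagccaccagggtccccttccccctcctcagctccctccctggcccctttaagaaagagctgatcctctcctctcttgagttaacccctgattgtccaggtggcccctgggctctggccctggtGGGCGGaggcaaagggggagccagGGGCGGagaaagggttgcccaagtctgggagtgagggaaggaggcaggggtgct
AXL, inner start, chr19:41226505-41226754, plus strand: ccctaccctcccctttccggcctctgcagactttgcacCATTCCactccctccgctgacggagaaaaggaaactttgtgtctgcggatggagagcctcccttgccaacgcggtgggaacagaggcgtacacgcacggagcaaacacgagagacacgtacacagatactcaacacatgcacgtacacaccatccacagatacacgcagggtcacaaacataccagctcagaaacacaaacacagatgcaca
The motifs were chosen after the values were seen and were searched on both strands: the AP-1 site TGANTCA, the cAMP response element TGACGTCA, the ETS site CCGGAAG, the E-box CACGTG, the FOXO site GTAAACA, the GC box GGGCGG and the TEAD site CATTCC. The EPHA2 window held the cAMP response element 51 bases, a GC box 64 bases and a TEAD site 73 bases before the start. The cAMP response element was present in 1.65% of 35116 RefSeq windows of this length, the TEAD site in 11.9% and the GC box in 42.6%. The MET window held GC boxes 160 and 95 bases before the start, and the outer AXL window held them 78 and 54 bases before it. In GENCODE v29 the MET transcript NM_000245.4 begins 196 bases from the MET start used here. The MET transcripts XM_011516223.1 and XM_006715990.2, with 47.1% and 35.3% of its counts, were not matched to a GENCODE start. The inner AXL window held no GC box and a TEAD site 212 bases before the start. None of these 4 windows matched the AP-1 site, the ETS site, the E-box or the FOXO site, which were present in 6.57%, 8.52%, 6.34% and 2.98% of all windows. Of the 17 windows found for 8 of the receptors, 3 held an AP-1 site, in ERBB2, EGFR and DDR1. The EGFR matches lay in its window from 55109589 and not in that from 55018767. The ERBB2 window also held 2 ETS sites, but it lies 11986 bases from the start that GENCODE v29 gives for the main ERBB2 transcript. A match to these letters is a description of the sequence and says nothing of which factor was bound.

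The 10 receptors differed widely in level. In the control library AXL, the receptor of GAS6, was the most abundant at 343 TPM, followed by DDR1, a collagen receptor, at 284 TPM and EGFR at 126 TPM. EPHA2 stood at 90.5, MET at 69.5, ERBB2 at 36.2, ERBB3 at 18.7 and IGF1R at 11.4 TPM, and INSR at 3.56 and FGFR1 at 1.04 TPM were the least abundant. No neighbours in this order had overlapping 95% counting intervals in any of the 4 libraries, and these intervals cover counting error only. The order changed with trametinib. DDR1 was above AXL in the trametinib library (470 against 287 TPM) and in the combination library (243 against 210 TPM), and EPHA2 moved from rank 4 in the control to rank 8 in both. The summed level of the 10 receptors was 984 TPM in the control, 782 under NBT, 1040 under trametinib and 766 under the combination. AXL and DDR1 together made up 63.8% of this sum in the control, 57.6% under NBT, 72.7% under trametinib and 59.1% under the combination.

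**Figure D1:**
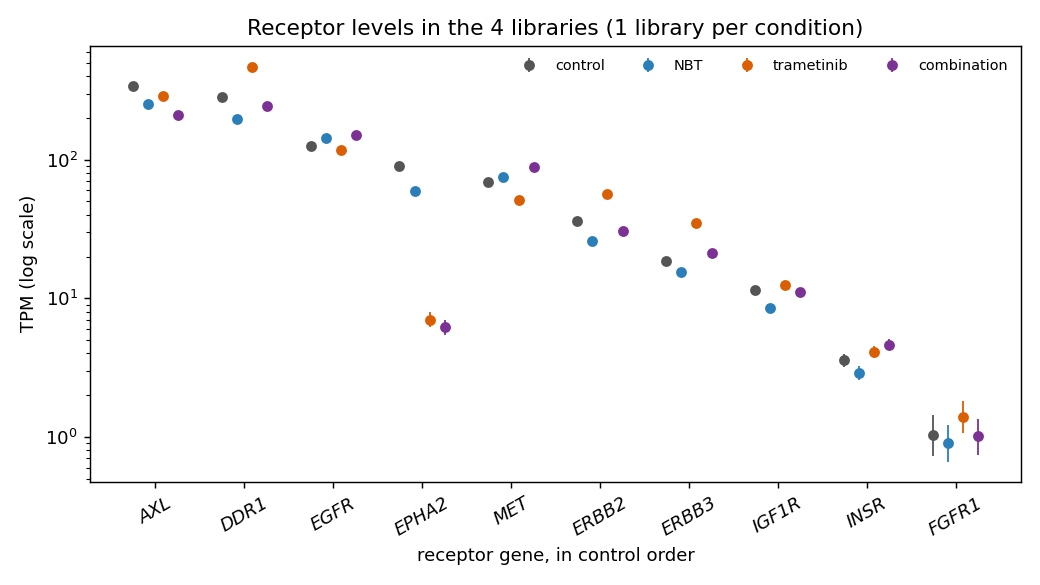
Level of the 10 receptor genes in TPM (vertical axis, log scale) in the control, NBT, trametinib and combination libraries, with receptors ordered by their control level and bars giving 95% counting intervals. EPHA2 drops from 90.5 TPM in the control to 7.02 and 6.19 TPM in the libraries with trametinib, while DDR1, ERBB2 and ERBB3 are highest in the library with trametinib alone.

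Against the control, trametinib alone left 1 of the 10 receptors past the limits, EPHA2, which was lower, and none higher. A gene was called when an exact binomial test of the counts of both libraries passed after adjustment over all genes and the ratio was at least 2-fold, and such a call compares the libraries and not the conditions. Among 16197 genes tested, 2.28% were called lower and 3.86% higher. At a limit of 1.5-fold, chosen after the values were seen, ERBB2, ERBB3 and DDR1 were higher and EPHA2 lower, that is 3 and 1 of 10 receptors beside 7.75% and 4.67% of all genes. The median log2 ratio of the 10 was 0.22 beside 0.08 over all genes tested. A negative binomial test was also run with an assumed variation between cultures (coefficient 0.2): 2.25% of genes were called in either direction, and EPHA2 remained the called receptor.

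NBT alone left none of the 10 past the limits of 2-fold or 1.5-fold, where 2.76% and 7.08% of 15888 genes were called in either direction, and none with the negative binomial test, which called 0.434%. AXL, DDR1, EPHA2, ERBB2, ERBB3 and IGF1R were between 1.22- and 1.45-fold lower in the NBT library, with intervals below 0 on the log2 scale. EGFR and MET were 1.19- and 1.14-fold higher with intervals above 0, and the intervals of INSR and FGFR1 included 0. The median log2 ratio of the 10 receptors was -0.31 beside -0.01 over all genes.

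Against the control, the combination left EPHA2 lower and no receptor higher past 2-fold, beside 3.83% and 4.89% of 16229 genes. At 1.5-fold AXL joined EPHA2 among the lower receptors and again none was higher, where 8.54% and 10.6% of genes were called. The receptors higher in the trametinib library past 1.5-fold were thus not past it in the combination library: the log2 ratio to the control was -0.19 for ERBB2 (95% interval from -0.30 to -0.09), 0.29 for ERBB3 (0.15 to 0.42) and -0.19 for DDR1 (-0.23 to -0.15). The negative binomial test called 3.37% of genes and, of the receptors, EPHA2.

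The direct comparison of the combination with trametinib sets the library with both drugs beside that with trametinib alone. Differences between cultures enter it as well as NBT. None of the 10 receptors passed 2-fold in either direction, where 2.64% of 16343 genes were called higher and 3.73% lower, and none passed the negative binomial test, which called 1.85%. At 1.5-fold MET was higher and ERBB2, ERBB3 and DDR1 were lower in the combination library, 1 and 3 of 10 beside 6.42% and 8.44% of genes. These 3 lower receptors are those that were higher in the trametinib library than in the control, and both comparisons share the trametinib library, so the level in that library enters both. The same comparison on the side of NBT, combination against NBT, left EPHA2 lower past 2-fold and no receptor higher, beside 2.16% and 2.38% of 16250 genes. At 1.5-fold INSR was higher and EPHA2 lower, beside 5.18% and 4.27%, and the negative binomial test called 1.26% of genes with EPHA2 among them.

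**Figure D2:**
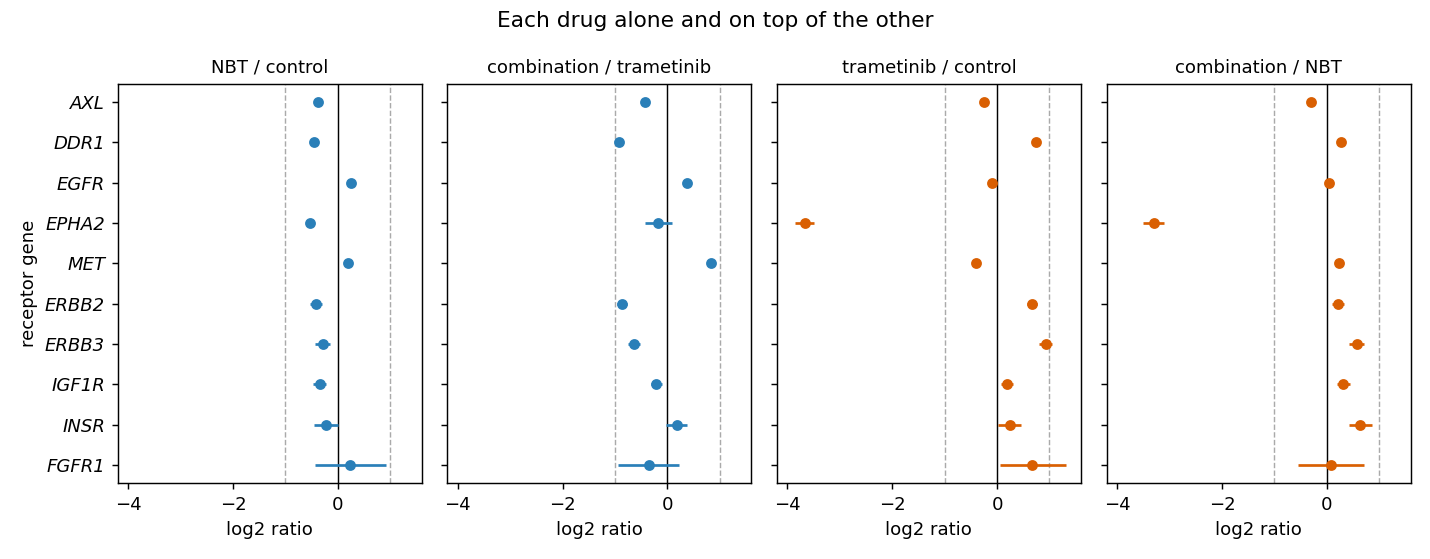
Log2 ratio of each receptor for NBT without and with trametinib (2 panels on the left) and for trametinib without and with NBT (2 panels on the right), with 95% counting intervals as bars and dashed lines at 2-fold. EPHA2 lies at -3.66 and -3.30 for trametinib, and MET lies at 0.19 and 0.83 for NBT while its values for trametinib, -0.41 and 0.23, fall on opposite sides of 0.

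EPHA2 (NCBI Gene 1969, chromosome 1, 16124337 to 16156069 on GRCh38.p14), a receptor of ephrin-A ligands, showed the largest difference of the set. It had 3371 counts in the control, 2413 under NBT, 268 under trametinib and 247 under the combination. Both libraries with trametinib were low and both without it high. The trametinib library was 12.7-fold below the control (log2 ratio -3.66, 95% interval from -3.85 to -3.49) and the combination library 14.2-fold below it (-3.83, from -4.03 to -3.65). Between the combination and trametinib libraries EPHA2 differed by -0.17 with an interval from -0.42 to 0.09, which includes 0. NBT alone was 0.53 below the control on the log2 scale (log2 ratio -0.53, from -0.61 to -0.46). EPHA2 is itself a target of MAPK signaling, and in both libraries with trametinib its direction was that of the 10 MAPK output genes. Their median log2 ratio to the control was -3.09 with trametinib and -3.06 with the combination. With NBT alone their median was 0.31, with DUSP4, SPRED1 and CCND1 below 0, whereas EPHA2 was at -0.53. A link between EPHA2 and the MAPK output genes was not tested.

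The ERBB receptors differed in which library was highest. EGFR (Gene 1956, chromosome 7, 55019017 to 55211628), the receptor of EGF, TGF-alpha and amphiregulin, had 11455 counts in the control, 14057 under NBT, 10847 under trametinib and 14555 under the combination. Both libraries with NBT were the higher ones. The log2 ratio was 0.25 for NBT alone (0.21 to 0.28), -0.09 for trametinib alone (-0.13 to -0.05) and 0.37 for the combination against trametinib (0.34 to 0.41), all short of 1.5-fold.

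ERBB2 (Gene 2064, chromosome 17, 39688094 to 39728658), which has no known ligand and signals as a partner of the other ERBB receptors, had 1601 counts in the control, 1249 under NBT, 2571 under trametinib and 1464 under the combination. The trametinib library stood alone above the others. It was 1.59-fold above the control (log2 ratio 0.67, 0.58 to 0.76), and the combination library was 1.82-fold below the trametinib library (-0.86, -0.96 to -0.77). ERBB3 (Gene 2065, chromosome 12, 56080108 to 56103505), the neuregulin receptor with little kinase activity of its own that recruits PI3K, had 826, 702, 1589 and 1052 counts in the control, NBT, trametinib and combination libraries. It was highest with trametinib and second with the combination. The ratio of trametinib to control was 1.91-fold (0.93, 0.81 to 1.05), that of the combination to trametinib was 1.56-fold lower (-0.64, -0.76 to -0.53), and the combination stayed above NBT alone by 0.57 (0.43 to 0.71). ERBB2 and ERBB3 were thus highest with trametinib and lowest with NBT, whereas EGFR was lowest with trametinib.

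MET (Gene 4233, chromosome 7, 116672196 to 116798377), the receptor of hepatocyte growth factor, had 4042 counts in the control, 4768 under NBT, 3073 under trametinib and 5644 under the combination. It was lowest with trametinib and highest with the combination. Trametinib alone was 1.33-fold below the control (log2 ratio -0.41, -0.48 to -0.34), while the combination was 0.42 above the control (0.36 to 0.48) and 1.77-fold above trametinib (0.83, 0.76 to 0.89). AXL (Gene 558, chromosome 19, 41219223 to 41261766), a TAM family receptor often linked with mesenchymal states and drug resistance, had 15190, 12151, 12932 and 9932 counts in the same order. Every treated library was below the control and the combination was lowest. The log2 ratio was -0.37 under NBT, -0.25 under trametinib and -0.68 under the combination (-0.71 to -0.64, 1.6-fold), close to the sum of the values of the single drugs.

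The receptors of insulin and its relatives differed little. IGF1R (Gene 3480, chromosome 15, 98648539 to 98964530), the receptor of IGF-1 and IGF-2, had 1245 counts in the control, 1015 under NBT, 1435 under trametinib and 1282 under the combination. All ratios were below 1.5-fold, and that of the combination to the control was -0.02 with an interval from -0.13 to 0.09. INSR (Gene 3643, chromosome 19, 7112265 to 7294414), the insulin receptor, had 322, 286, 384 and 450 counts in the same order. It was highest with the combination, 0.42 above the control (0.21 to 0.63) and 1.56-fold above NBT (0.64, 0.42 to 0.86).

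DDR1 (Gene 780, chromosome 6, 30880970 to 30900156), which is activated by collagen, had 10272 counts in the control, 7708 under NBT, 17401 under trametinib and 9427 under the combination. As for ERBB2, the trametinib library was above the rest and the NBT library lowest. The log2 ratio was 0.75 for trametinib against control (0.71 to 0.78, 1.68-fold), -0.46 for NBT against control and -0.93 for the combination against trametinib (-0.97 to -0.90, 1.91-fold lower), the latter the widest difference of the 10 in that comparison. FGFR1 (Gene 2260, chromosome 8, 38411143 to 38468635), a receptor of fibroblast growth factors, had only 36, 44, 58 and 47 counts in the control, NBT, trametinib and combination libraries. The interval of trametinib against control ran from 0.05 to 1.32 around 0.67 and those of the other comparisons included 0, so a difference of FGFR1 between those libraries was not detectable at this depth.

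How the drugs combined was described for each receptor by the log2 ratio of the combination to the control minus the sum of the ratios of the single drugs, where 0 means that the log2 ratios add. No receptor departed by 1 or more, beside 2.33% of 11367 genes with at least 50 counts. MET had a value of 0.64 (0.55 to 0.73), the largest of the 10 above 0, and it was higher in the combination than the single drugs add up to. DDR1 at -0.47 (-0.53 to -0.41), ERBB2 at -0.45 (-0.60 to -0.31) and ERBB3 at -0.36 (-0.54 to -0.18) were lower than the sum. INSR at 0.40 and EPHA2 at 0.36 were above it, with intervals from 0.10 to 0.70 and from 0.10 to 0.63. AXL at -0.06 and EGFR and IGF1R at 0.13 were near 0, and the interval of FGFR1, from -1.43 to 0.25, was too wide to place it. In direction, 8 of the 10 receptors differed the same way between libraries with and without NBT, whether trametinib was absent or present. The exceptions were INSR and FGFR1, and the share was 76.3% among 10662 genes with at least 100 counts. Between libraries with and without trametinib 8 of 10 differed the same way, whether NBT was absent or present. The exceptions were EGFR and MET, and the share was 72.0% among these genes. Both shares were near those of all genes, and the comparisons in each pair share no library.

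The other receptor tyrosine kinases gave a background for the 10. The table held 50 of the 58 human receptors listed, 25 of them with at least 100 counts in a library and 9 with at most 3. Of 40 receptors outside the set, trametinib left 1 higher and 3 lower past 2-fold, and the combination left 1 higher and 1 lower, each against the control. Among all genes 3.86% were higher and 2.28% lower with trametinib, and 4.89% and 3.83% with the combination. FGFR3, a fibroblast growth factor receptor, had 211 counts in the control, 99 under NBT, 652 under trametinib and 121 under the combination. Its log2 ratio was 1.61 with trametinib (1.39 to 1.85) and -2.47 for the combination against trametinib (-2.77 to -2.20), so it had the order of ERBB2 and DDR1 with wider differences. FGFR2, named here after its values were seen, had 1265, 773, 2416 and 986 counts and the same order, 0.92 above the control with trametinib. STYK1, a kinase-like membrane protein, was lower with trametinib (180 against 46 counts, -1.97) and not with the combination (213 counts), and ROR1, a receptor of WNT5A, was lower with trametinib (203 against 84 counts, -1.28). CSF1R, the receptor of macrophage colony-stimulating factor, was higher with the combination from 34 to 113 counts (1.65), and MST1R, the relative of MET that binds macrophage-stimulating protein, was lower from 1338 to 692 counts (-1.01). The median log2 ratio with trametinib was 0.22 for these other receptors, as for the 10.

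**Figure D3:**
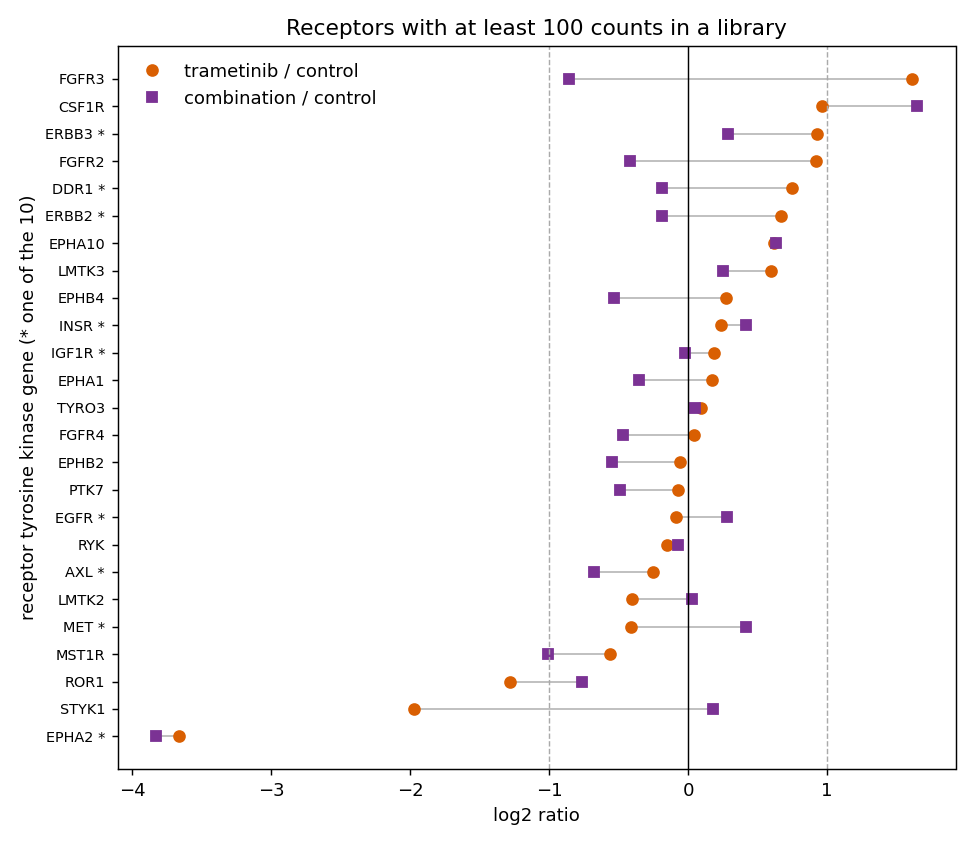
Log2 ratio to the control with trametinib (circles) and with the combination (squares) for the 25 receptor tyrosine kinases with at least 100 counts in a library and for no others, ordered by the trametinib value, with an asterisk on those of the 10 and dashed lines at 2-fold. FGFR3, FGFR2, ERBB3, DDR1 and ERBB2 lie to the right with trametinib and nearer to or left of 0 with the combination, whereas CSF1R lies at 0.96 and further right at 1.65, EPHA10 is at 0.62 and 0.63, and EPHA2 is the lowest in both.

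Ligands of the 10 receptors were listed from the same table. Of 24 ligands in the table, 3 were higher and 5 lower with trametinib past 2-fold, and 1 was higher and 3 lower with the combination, each against the control. Over all genes, as given above, 3.86% were higher and 2.28% lower with trametinib, and 4.89% and 3.83% with the combination. The 5 lower with trametinib were HBEGF, TGFA, AREG, NRG1 and NRG2, all among the 9 ERBB ligands of the list, and the 3 higher were FGF1, EFNA1 and COL1A1. NRG1, NRG2 and COL1A1 are named after their values were seen. NRG2 rested on 14 counts in the control and 4 with trametinib (log2 ratio -1.70, -3.88 to -0.15). NRG1 had 2038 counts in the control, 1992 under NBT, 899 under trametinib and 1572 under the combination (log2 ratio -1.19 with trametinib, -1.31 to -1.08), so it was lowest in the library in which ERBB3 was highest. HBEGF had 147 counts in the control, 395 under NBT, 40 under trametinib and 101 under the combination, and TGFA had 1462, 1544, 490 and 456. AREG, amphiregulin, had 692, 1680, 281 and 1463 counts, so it was lower with trametinib (log2 ratio -1.31, -1.52 to -1.11) and higher with the combination (1.02, 0.89 to 1.15). Thus AREG, like EGFR, was above the control in both libraries with NBT, and TGFA was low in both libraries with trametinib, as EPHA2 was. FGF1, a ligand of the FGF receptors, had 79, 47, 609 and 77 counts and was 2.93 above the control on the log2 scale with trametinib (2.59 to 3.29), and the log2 ratio of the combination to trametinib was -3.03 (-3.39 to -2.69). EFNA1, an ephrin ligand of EPHA2, was higher with trametinib, with 385, 468, 786 and 694 counts (1.02, 0.84 to 1.2), while EPHA2 was lower. The other ephrin-A ligands of the list, EFNA3, EFNA4 and EFNA5, were at 0.18, 0.37 and 0.01 with trametinib and were not called. GAS6, the ligand of AXL, had 3925, 2574, 3426 and 1733 counts and was lower with the combination (-1.24), the library in which AXL was lowest too. COL4A2, a basement membrane collagen bound by DDR1, had 3849, 2542, 2505 and 1879 counts and was lower with the combination (-1.10). COL1A1, a fibrillar collagen that also binds DDR1, was higher with trametinib at low counts (45 in the control, 98 with trametinib, log2 ratio 1.10).

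Of 19 genes that restrain receptors or release them and their ligands from the membrane, none was higher and 3 were lower with trametinib, and 2 were higher and 2 lower with the combination. The shares over all genes were 3.86% higher and 2.28% lower with trametinib, and 4.89% and 3.83% with the combination. ERRFI1, which blocks EGFR family kinases, had 748 counts in the control, 979 under NBT, 358 under trametinib and 488 under the combination (log2 ratio -1.08 with trametinib). SOCS3, an inhibitor of cytokine and insulin receptor signaling, had 383, 574, 190 and 438 counts (-1.02), and TIMP1, an inhibitor of metalloproteinases, had 4280, 3788, 1868 and 1365 (-1.21 with trametinib, -1.71 with the combination). With the combination, CBLB, a ubiquitin ligase of active receptors, had 527 counts against 172 in the control (1.55, 1.30 to 1.81). ADAM17, the protease that sheds amphiregulin and other EGFR ligands, had 1450, 2192, 1617 and 3463 counts (1.19 with the combination, 1.10 to 1.28).

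Transcripts gave a finer view of 3 receptors, with the limit that reads shared by transcripts of a gene were divided between them by an estimate. Both main EPHA2 transcripts were low with trametinib: NM_004431.5 had 1972 counts in the control and 115 with trametinib (log2 ratio -4.11, -4.40 to -3.84), and NM_001329090.2 had 1393 and 154 (-3.19, -3.44 to -2.95). The AXL transcript NM_001278599.1, which begins at the inner start shown above, had 1499 counts in the control, 1426 under NBT, 1991 under trametinib and 1219 under the combination. It was 0.40 above the control with trametinib (0.30 to 0.49), whereas NM_001699.6 and NM_021913.5, which begin within 20 bases of the outer start, were at -0.32 and -0.37. Its share of AXL counts was 9.87% in the control (9.40% to 10.4%), 11.7% with NBT, 15.4% with trametinib (14.8% to 16.0%) and 12.3% with the combination. Of EGFR, NM_005228.5 held 38.7% of the counts in the control and 15.4%, 13.0% and 13.7% with NBT, trametinib and the combination, and NM_001346900.2 held 28.0%, 44.5%, 46.0% and 47.1%. NM_001346941.2 held 32.9%, 39.9%, 40.8% and 39.0% in the same order. The control library thus stood apart from the 3 treated libraries in how the estimate divided EGFR reads, which the gene count does not show. Whether the transcripts themselves differed was not tested. For INSR the estimate put all 322 counts of the control on isoform A (NM_001079817.3) and all 384 of the trametinib library on isoform B (NM_000208.4), whereas with the combination they had 160 and 176 counts. With so few reads the division of INSR between isoforms was not resolved. IGF1R, with more reads, also had uneven estimates. Its NM_001291858.2 had 337 counts in the control, 0 under NBT, 345 under trametinib and 442 under the combination. ERBB2 and ERBB3 had a single main transcript each by counts, with 93.1% and 95.4% of their counts over the 4 libraries. By TPM, which is scaled to length, the main ERBB3 transcript NM_001982.4 held less. Its share was 78.3% in the control, 73.2% under NBT, 78.8% under trametinib and 82.9% under the combination.

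**Figure D4:**
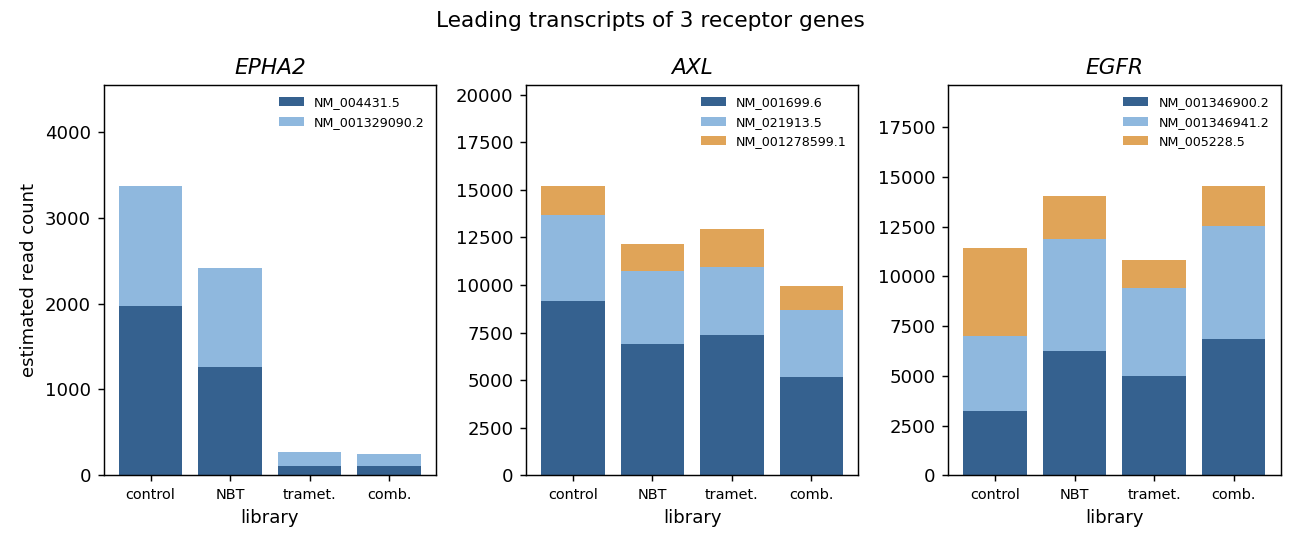
Estimated read counts of the leading transcripts of EPHA2, AXL and EGFR in the control, NBT, trametinib and combination libraries, stacked so that the bar height is the count over the transcripts shown. Both EPHA2 transcripts shrink in the libraries with trametinib, the AXL transcript from the inner start (NM_001278599.1) is largest with trametinib at 1991 counts, and NM_005228.5 of EGFR is largest in the control.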

How the data were processed

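RNA of 4 cultures, 1 per condition, was sequenced, and titles and treatment labels gave each library its condition. The authors deposited an estimated read count per gene and per transcript, not normalized, and a TPM value. The FPKM columns were not used. The submitters' processing notes list Bowtie2 2.2.5, RSEM 1.2.8 and hg38. RSEM divides reads that match several genes or transcripts, and 7 of the 10 receptors had a count that was not whole. Filters used before deposit act on all values.

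Deposited estimated counts were rounded and scaled to library sums, and log2 ratios were computed with 0.5 reads added. TPM served for levels between genes. Genes were called by an exact two-sided binomial test of 2 counts given their sum. Values were adjusted by Benjamini-Hochberg over all genes that had 1 count or more in the pair, and a call needed 0.05 or less together with a log2 ratio of 1 or more in size, as in the study's methods. The 95% intervals (Clopper-Pearson) hold counting error alone and treat reads as independent, although PCR copies are not independent molecules. They leave out the error of dividing reads between genes and transcripts. No p-value is printed.

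The receptors and the gene lists were chosen with earlier results of these data known. All 10 receptors are named, and from each other list up to 3 called genes per direction whose higher library had 100 counts or more, for trametinib and for the combination against control. Alternatives were TMM (edgeR 4.0.16) and median-of-ratios (DESeq2 1.42.0) scaling, TPM with a pseudocount of 0.1, 5 added reads, summed transcript counts, a limit of 10 counts, and edgeR's negative binomial exact test, where the variation between cultures was set to a coefficient of 0.2. A limit of 1.5-fold was added after the values were seen. The calling steps were tested on made-up libraries with known changes. RefSeq starts on GRCh38.p14 gave 17 windows for 8 of the 10 receptors, not ERBB3 and FGFR1. The ERBB2 window is not shown because it lies 11986 bases from the start that GENCODE v29 gives for its main transcript. R 4.3.3, Python 3.11.15, scipy 1.17.1, numpy 2.4.6 and pandas 2.3.3 were used.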

Additional observations from a re-analysis of the deposited data

Results flagged for a closer look

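The effect of trametinib on MET had opposite signs without and with NBT. Its log2 ratio was -0.41 for trametinib against control, from 4042 to 3073 counts, and 0.23 for the combination against NBT, from 4768 to 5644 counts. The estimates of the main MET transcripts did not all share this pattern. In these comparisons XM_011516223.1 was at -0.41 and 0.65 and XM_006715990.2 at -0.37 and 0.16, but NM_000245.4 was at -0.63 and -0.78. EGFR had -0.09 for trametinib against control and 0.04 for the combination against NBT. With 1 library per condition neither difference between these effects was tested, and both EGFR values were small in size.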

How the results depend on the processing

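With the limit of 1.5-fold, added after the values were seen, the number of receptors called was 4 for trametinib against control, 2 for the combination against control, 4 for the combination against trametinib and 2 for the combination against NBT, in place of 1, 1, 0 and 1 at 2-fold. Under the 7 other settings the number of receptors called in each of the 5 comparisons was the same as reported. Of 50 log2 ratios of receptors, none that was called changed sign. With TMM scaling 43 moved by less than their counting interval, 45 with median-of-ratios scaling and 45 with TPM. All 50 did so with 5 added reads, with summed transcripts and with the limit of 10 counts. The limit of 10 counts does not enter the ratios, so it was no check of them. Summed transcripts gave the same ratios as the gene counts, so that setting was no check of ratios or calls. The sign changed for FGFR1 with TPM, to -0.17 for NBT against control and -0.04 for the combination against control, values whose intervals included 0. The scalings moved the median of all genes by at most 0.075 in size (TMM, trametinib against control, -0.075). ERBB2, ERBB3 and DDR1 with trametinib stayed past 1.5-fold in every setting, and no receptor departed from additivity by 1 in any. Of 40 shares held by a leading transcript, 13 moved past their counting interval when TPM replaced counts. No paired analysis was possible because each condition had 1 library, and for the same reason no replicate could be left out. Depth limits FGFR1, with at most 58 counts, and the isoforms of INSR. The variation between cultures was not measured.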

Other observations

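Adaptors that carry receptor signals inward and factors that set receptor transcription were also listed. Of 18 adaptors, none was higher and 2 were lower with trametinib past 2-fold, and 1 was higher and 1 lower with the combination, each against the control. The shares over all genes were 3.86% higher and 2.28% lower with trametinib, and 4.89% and 3.83% with the combination. IRS1, the main adaptor of the insulin and IGF-1 receptors, had 1569 counts in the control, 706 under NBT, 505 under trametinib and 340 under the combination, a log2 ratio of -1.65 with trametinib (-1.80 to -1.50) and -2.27 with the combination (-2.44 to -2.10). IRS2, its relative, had 726, 806, 316 and 622 counts and was lower with trametinib (-1.21, -1.41 to -1.02). INSR and IGF1R were within 1.5-fold of the control in the same libraries. GAB2, an adaptor that binds PI3K and the phosphatase SHP2, had 171, 385, 275 and 778 counts and was higher with the combination (2.12, 1.88 to 2.37).

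Of 12 regulators of receptor transcription, none was higher and 2 were lower with trametinib, beside 3.86% and 2.28% of all genes. None was called with the combination, where 4.89% of all genes were higher and 3.83% lower. MYC, a transcription factor whose gene is a target of ERK signaling, had 913 counts in the control, 1297 under NBT, 170 under trametinib and 586 under the combination, a log2 ratio of -2.43 with trametinib (-2.68 to -2.20) and -0.70 with the combination (-0.85 to -0.55). WWTR1, the TEAD coactivator TAZ, had 1354, 1454, 476 and 738 counts and was lower with trametinib (-1.52, -1.68 to -1.37).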
